A study of Mus musculus with 24 samples.

Results

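Heat shock proteins and chaperones were examined as a group of 10 named genes among the 20696 genes of the deposited 3′UTR tables. The stress-inducible members were Hspa1a, Hspa1b, Hsp90aa1, Dnajb1 and Hsph1, and the constitutive members were Hspa8, Hsp90ab1, Hspa5, Hspd1 and Hspe1. Each was found by matching the transcript accession of its row to the gene, and each had 1 interval. The study profiled mouse Meis1/Hoxa9 preleukemic cells, that is c-Kit+ fetal liver cells of C57BL/6 background transformed with retroviruses carrying both oncogenes. Both genotypes carried fl/fl alleles of Tut4 and of Tut7. Control cells lacked Cre (Vav-iCre-), and the Tut4/7 cDKO cells had Vav-iCre, a Cre transgene active in blood cells. All cells were grown in IMDM with FBS, SCF, IL-6 and IL-3, were given 2.9 µM 4-thiouridine (4SU) for 12 h, and were chased without 4SU for 0, 60, 180 or 540 min before collection. Each of the 8 groups held 3 replicates, 24 libraries in all.

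Chaperones bind unfolded stretches of other proteins and release them in cycles of ATP binding and hydrolysis. HSP70 proteins work with J-domain proteins, which deliver clients and trigger hydrolysis, and with HSP110 proteins, which exchange the nucleotide. HSP90 acts later on kinases, receptors and other clients. HSPD1 and HSPE1 form the folding chamber of mitochondria and its lid, and HSPA5 (BiP) is the HSP70 of the endoplasmic reticulum (ER). On heat or protein damage, HSF1 binds heat shock elements and raises the inducible members within minutes, while ER stress raises Hspa5 through the ER stress element.

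Those elements are shown for the members in which the letters were found. A heat shock element was searched as 3 alternating units GAA and TTC, each pair separated by any 2 bases, on both strands, with overlapping matches joined. An ER stress element was searched as CCAAT, any 9 bases and CCACG, on both strands. RefSeq promoters (GRCm38.p6, 250 bases before to 50 after the start) were found for 7 of the 10 members. The heat shock element was in the promoters of 3 of the 7 (Hspd1, Hspe1 and Hsph1), against 0.662% of all genes with a promoter. The ER stress element was in 1 of the 7 (Hspa5), against 0.137% of all genes. In the sequences printed here, capitals mark the element. Hspd1 and Hspe1 are divergent neighbours, and the same 18 bases, chr1:55088059-55088076, lie in the promoter window of both, shown in the window chr1:55088038-55088097 on the + strand, that of Hspe1. The ER stress element of Hspa5 is at chr2:34772025-34772043, in the window chr2:34772000-34772059 (+ strand). The heat shock element of Hsph1, at chr5:149636288-149636300 in the window chr5:149636280-149636308 (- strand), lies just after the start of the transcript. Those letters were not found in the windows of Hspa1a, Hspa1b and Dnajb1, classed as inducible, while Hspd1 and Hspe1 are classed as constitutive. The search thus did not separate the classes.
Hspe1: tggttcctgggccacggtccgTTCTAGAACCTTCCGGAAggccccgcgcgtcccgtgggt
Hspa5: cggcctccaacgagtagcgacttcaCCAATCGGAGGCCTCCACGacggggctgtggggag
Hsph1: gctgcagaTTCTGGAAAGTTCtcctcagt

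Reads were counted over annotated 3′UTR intervals (mm10). For the HSP70 system these were chr9:40805118-40805199 (+) for Hspa8, chr17:34969359-34969999 (-) for Hspa1a, chr17:34956429-34957078 (-) for Hspa1b, chr8:83610820-83612653 (+) for Dnajb1 and chr5:149616845-149617506 (-) for Hsph1. For HSP90 they were chr12:110691036-110691539 (-) for Hsp90aa1 and chr17:45567778-45568014 (-) for Hsp90ab1. The organelle members were counted over chr1:55077834-55078287 (-) for Hspd1, chr1:55091121-55091317 (+) for Hspe1 and chr2:34776114-34776529 (+) for Hspa5.

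The libraries held 4369541 to 7024684 reads in 3′UTRs, to which the reads of each gene were scaled as CPM. These are tags from 3′ ends, so levels are compared between samples and not between genes. The targeted genes were lower in cDKO at all 4 times. At 0 min Tut4 stood at 76.7 ± 9.19 CPM in control and 22.3 ± 6.93 in cDKO, and Tut7 at 40.1 ± 5.25 and 18.7 ± 1.82 (SD, n = 3), although 3′UTR tags can lie outside the deleted part. Labeling differed between genotypes. At 0 min control libraries had 1.62 to 1.67% of all T positions read as C, and cDKO libraries had 0.542 to 0.845%, lowest in replicate 3. The cultures also differed in lineage markers. Over all times, 10 neutrophil markers summed to 6790.4 to 7909 CPM in control libraries and 1870.0 to 2921 CPM in cDKO libraries, with Ltf at 0 in cDKO. The sum of 9 mast cell and basophil markers ranged from 15.8 to 34.6 CPM in control and from 132 to 247 in cDKO, with Fcer1a, Tpsb2, Tpsab1 and Cma1 at 0 in both. For 9 erythroid markers the sum ranged from 0.373 to 3.08 CPM in control and from 1311 to 2096 in cDKO, with Alas2 and Epor at 0 in both. The 10 myeloid progenitor markers summed to 3635 to 4312 CPM in control and 4534 to 8194 in cDKO, with Meis1 at 0 in control. Reads were counted over annotated 3′UTRs, and whether retroviral Meis1 and Hoxa9 transcripts carry these was not given in the sources used here. The level of the retroviral transcripts is thus not known from these sums. Of 9 lymphoid markers, 8 were in the tables and summed to at most 18.4 CPM, with Cd3e and Cd79a at 0 in both. These marker differences moved with each genotype difference below, and their part in it was not tested. Nor can fewer cells of a type and less RNA per cell be told apart. Chase time is also the batch in the labels, and all 24 libraries were pooled for sequencing. Genotypes were therefore compared within a batch, while a change over the chase cannot be told apart from a batch difference.

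The classical stress-inducible HSP70 genes, Hspa1a and Hspa1b, were barely detected. Hspa1a had 0 to 9 reads per library and Hspa1b 0 to 18. Both genotypes had their highest sum at 540 min. In control the 3 libraries of a time summed to 28, 21, 12 and 50 reads of the pair at 0, 60, 180 and 540 min, equal to 1.64, 1.33, 0.773 and 2.61 CPM. In cDKO the sums were 10, 7, 14 and 34 reads, equal to 0.686, 0.472, 0.926 and 2.02 CPM. The limit set by 3 reads in a group was 0.157 to 0.206 CPM. Hspa1b passed the filter on low counts in the control chase comparisons and in the test of the genotype difference in the change, and Hspa1a in none of the 11 comparisons of abundance. In control, Hspa1b differed from 0 min by -0.03 ± 0.82, -0.89 ± 0.91 and 0.31 ± 0.78 on the log2 scale (± SE) at 60, 180 and 540 min, with adjusted p from 0.64 to 0.99 in edgeR. At 0 min the pair carried 17 conversions over 612 covered T positions in control and 1 over 290 in cDKO, too few for a decay curve.

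**Figure D1:**
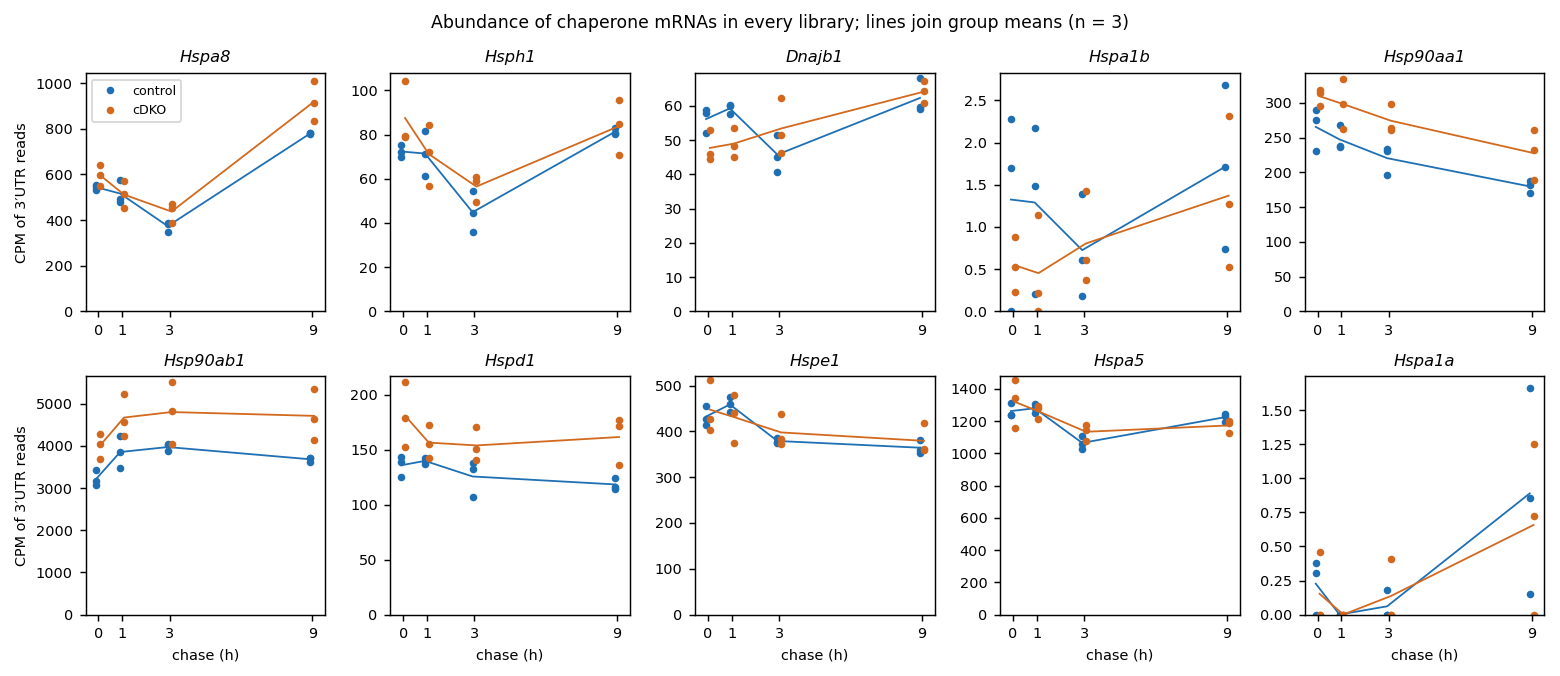
Level of each chaperone mRNA in CPM of 3′UTR reads (y axis, from 0) against chase time in hours (x axis); points are the libraries, shifted sideways by genotype, and lines join the means of 3. Hspa8 and Hsph1 have their lowest means at 3 h in both genotypes, Hsp90aa1 has its lowest means at 9 h, and Hspa1a and Hspa1b stay under 3 CPM.

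In the cytosolic HSP70 system, Hspa8 was lower at 180 min and higher at 540 min than at 0 min. Hspa8, the constitutive cytosolic HSP70, stood at 532, 553 and 547 CPM in control at 0 min, at 575, 492 and 481 at 60 min, at 382, 349 and 389 at 180 min, and at 782, 778 and 780.2 at 540 min. The 180 min libraries were all below the 0 min libraries and the 540 min libraries all above them. The log2 change of Hspa8 in control was -0.53 from 0 to 180 min (SE 0.06, adjusted p = 2.8e-06 in edgeR) and 0.48 from 0 to 540 min (SE 0.06, adjusted p = 2.2e-06). In cDKO it stood at 598, 643 and 547 CPM at 0 min, 515, 569 and 451 at 60 min, 454, 472 and 385 at 180 min, and 914, 1010.1 and 834 at 540 min, again without overlap between 0 min and either 180 or 540 min. The rise at 540 min was 0.59 (SE 0.12, adjusted p = 0.036). The difference at 180 min was -0.45 (SE 0.12, adjusted p = 0.42), and the fit with the replicate number as a block called it (adjusted p = 0.00041). About 23.9 to 31.6% of Hspa8 reads mapped to more than 1 place, and its tabulated 3′UTR interval covers only 82 bases. On uniquely mapped reads the log2 change to 540 min was 0.49 for control (adjusted p = 6.4e-06) and 0.53 for cDKO (adjusted p = 0.069).

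Hsph1, the HSP110 partner of HSP70, was also lowest at 180 min. It stood at 70.0, 75.2 and 71.9 CPM in control at 0 min, at 35.8, 54.5 and 44.4 at 180 min, and at 82.9, 80.8 and 80.3 at 540 min. In control it fell by 0.67 from 0 to 180 min on the log2 scale (SE 0.13, adjusted p = 0.0014), and the 540 min value did not pass the test (0.13 ± 0.12 SE, adjusted p = 0.52). In cDKO it stood at 78.7, 104 and 79.5 CPM at 0 min and at 49.3, 61.0 and 59.2 at 180 min, a log2 difference of -0.64 (SE 0.18, adjusted p = 0.44) that was called with the replicate block (adjusted p = 0.011). At 540 min in cDKO it stood at 84.9, 95.8 and 70.9 CPM, which overlapped 0 min (-0.10 ± 0.17 SE, adjusted p = 0.88). Dnajb1, the J-domain partner of inducible HSP70, stood at 52.0, 57.8 and 58.7 CPM in control at 0 min, 40.8, 45.0 and 51.6 at 180 min and 59.2, 59.6 and 68.2 at 540 min. The groups did not overlap, but neither change passed the test over all genes (adjusted p = 0.16 and 0.55). In cDKO it stood at 44.4, 52.9 and 45.9 CPM at 0 min and 64.3, 67.4 and 60.9 at 540 min (log2 difference 0.39 ± 0.13 SE, adjusted p = 0.20).

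Of the cytosolic HSP90 genes, Hsp90ab1 was higher after 0 min in control, while all reads together put Hsp90aa1 lower. Hsp90aa1, the inducible form, stood at 231, 289.9 and 275 CPM in control at 0 min and at 181, 170.1 and 188 at 540 min, with no overlap. It fell by 0.60 on the log2 scale (SE 0.08, adjusted p = 5.5e-06). In cDKO it stood at 314, 296 and 318 CPM at 0 min and 233, 261 and 189 at 540 min, again with no overlap (log2 difference -0.48 ± 0.12 SE, adjusted p = 0.091, and 0.0016 with the replicate block). Multimapped reads were 94.1 to 98.0% of its reads, so nearly all of its level rests on sequence shared with other places in the genome. On the few remaining reads the control difference was 0.52, 0.46 and 0.06 at 60, 180 and 540 min (SE 0.33 each, adjusted p = 0.50, 0.47 and 0.93), so the decline cannot be assigned to this locus. Hsp90ab1, the constitutive form, had under 1.2% multimapped reads. It stood at 3430.1, 3157 and 3081 CPM in control at 0 min, 3476, 4222 and 3863 at 60 min, 3868, 4011 and 4036 at 180 min and 3722, 3709 and 3613 at 540 min. All later libraries were above all 0 min libraries. Its log2 increase was 0.27 at 60 min, 0.32 at 180 min and 0.15 at 540 min (SE 0.05 each, adjusted p = 0.0034, 0.00039 and 0.049). In cDKO the differences were 0.22, 0.26 and 0.20 (SE 0.13 each, adjusted p = 0.86, 0.67 and 0.57), and with the replicate block those at 180 and 540 min were called (adjusted p = 0.016 and 0.023).

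Among the organelle chaperones, Hspe1, the mitochondrial lid protein, stood at 414, 428 and 454 CPM in control at 0 min and 358, 381 and 354 at 540 min. It fell by 0.29 on the log2 scale (SE 0.06, adjusted p = 0.00063). In cDKO it stood at 427, 512 and 403 CPM at 0 min and 362, 418 and 358 at 540 min, which overlap (log2 difference -0.28 ± 0.12 SE, adjusted p = 0.35, and 0.017 with the block). Multimapped reads were 18.3 to 25.6% of Hspe1 reads, so part of its level and conversions may be shared with other places in the genome. Hspd1, the chamber protein encoded across the shared promoter, stood at 139, 144 and 125 CPM in control at 0 min and 124, 115 and 116 at 540 min, and did not pass the test (-0.24 ± 0.09 SE, adjusted p = 0.065). Hspa5 stood at 1315, 1236 and 1237 CPM in control at 0 min, dipped to 1026, 1109 and 1061 at 180 min, and was at 1244, 1234 and 1197 at 540 min. The log2 difference at 180 min was -0.23 (SE 0.05, adjusted p = 0.0036). In cDKO the 180 min difference was -0.22 (SE 0.09, adjusted p = 0.55). The interval of Hspa5 lies within the span of Rabepk, and the strand setting of the counting was not given in the sources used here, so reads of Rabepk there could not be set apart.

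In control, 1 of 9 members tested was called at 60 min against 2.1% of all genes, 4 of 9 at 180 min against 6.08%, and 4 of 9 at 540 min against 17.7%. At 180 min the called members were Hsp90ab1, higher, and Hspa5, Hspa8 and Hsph1, lower. At 540 min they were Hspa8 and Hsp90ab1, higher, and Hsp90aa1 and Hspe1, lower. In cDKO 0 of 8 were called at 60 min (0.00961% of all genes), 0 of 8 at 180 min (0.0673%) and 1 of 8 at 540 min (0.932%). By unadjusted p under 0.05 those counts were 0, 3 and 5, and DESeq2 called 0, 1 and 2. With the replicate block the cDKO calls were 0, 3 and 4 of 8, against 0.26, 1.06 and 7.53% of all genes. The change from 0 to 540 min was also compared between genotypes, and 0 of 9 members were called by edgeR (0% of 10593 genes). At an unadjusted p under 0.05 there were 0 (5.23% of all genes), and DESeq2 called 0 (0.0567%). Among the control calls, that of Hsp90ab1 was lost at 60 min without replicate 2 or 3 (adjusted p = 0.18 and 0.21), at 180 min without replicate 3 (0.06), and at 540 min without replicate 2 or 3 (0.17 and 0.31) and in DESeq2 (0.067). That of Hspa5 at 180 min was lost without replicate 1 or 3 (0.14 and 0.061) and that of Hspe1 at 540 min without replicate 3 (0.057). The cDKO call of Hspa8 at 540 min was lost without any one replicate (0.63, 0.16 and 0.063), in fits without the block. With the replicate block and all replicates it was called (0.59 ± 0.06 SE, adjusted p = 4.1e-06).

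To ask how TUT4/7 loss bears on these mRNAs, genotypes were compared at each time. Differences were small, and those that passed the test were higher in cDKO. Hsp90ab1 stood at 4056, 4281 and 3698 CPM in cDKO at 0 min and 4648, 5348 and 4137 at 540 min, and its cDKO libraries lay above its control libraries at all 4 times. The log2 difference was 0.33 ± 0.10, 0.26 ± 0.09, 0.25 ± 0.10 and 0.35 ± 0.08 (± SE) at 0, 60, 180 and 540 min, with adjusted p = 0.057, 0.072, 0.093 and 0.016. Hspd1 stood at 179, 212 and 152 CPM in cDKO at 0 min and 177, 172 and 136 at 540 min, above the control libraries in both cases. Its log2 difference was 0.43 ± 0.14, 0.14 ± 0.09, 0.27 ± 0.11 and 0.44 ± 0.11 at 0, 60, 180 and 540 min (adjusted p = 0.075, 0.30, 0.13 and 0.02), and its genotypes overlapped at 60 min. Hspe1, which shares its promoter, differed by 0.07 ± 0.11 and 0.05 ± 0.08 at those times (adjusted p = 0.76 and 0.70). Whether Hspd1 and Hspe1 differ from each other was not tested. Multimapped reads were 18.3 to 25.6% for Hspe1 and at most 2.4% for Hspd1. Hsp90aa1 stood at 234, 197 and 231 CPM in control and 264, 298 and 260.2 in cDKO at 180 min, higher by 0.30 on the log2 scale (SE 0.09, adjusted p = 0.042). At 540 min its difference was 0.33 ± 0.11 (adjusted p = 0.07). With its multimapped reads left out, the 180 min value was 0.72 ± 0.36 (adjusted p = 0.20).

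Dnajb1 was the member with the most negative fitted difference at 0 and 60 min. It stood at 60.2, 57.7 and 60.0 CPM in control and 53.6, 45.1 and 48.3 in cDKO at 60 min, without overlap but not called (-0.30 ± 0.11 SE, adjusted p = 0.094). At 180 and 540 min its difference was 0.20 ± 0.15 and 0.03 ± 0.11. Hspa5 differed by -0.07 to 0.08 over the 4 times. Hspa8 differed by 0.23 ± 0.07 at 540 min (adjusted p = 0.056), its cDKO libraries above the control libraries, and by -0.03 to 0.21 at the earlier times. Hsph1 differed by -0.03 to 0.31, with adjusted p of 0.23 or more.

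Across members, 0 of 8 were called at 0 min against 13.4% of all genes, 0 of 8 at 60 min against 20.2%, 1 of 8 at 180 min against 18.9%, and 2 of 8 at 540 min against 19.3%. The unadjusted p was under 0.05 for 3, 3, 4 and 4 members, against 26.5, 33.3, 31.8 and 31.6% of all genes. DESeq2 called 2, 1, 2 and 4 members, against 15.3, 20.7, 19.0 and 19.9% of all genes. Whether the share of members lay above or below that of all genes thus depended on the tool and threshold. Leaving out cDKO replicate 3, the least labeled, gave 2, 2, 4 and 4 calls, all higher in cDKO, where 14 to 22.7% of all genes were called in either direction. Among them were Hsp90ab1 at all 4 times (adjusted p from 0.00012 to 0.017) and Hspd1 at 0 min (0.014), 180 min (0.044) and 540 min (0.0013). Conversely, the call of Hsp90ab1 at 540 min was lost without any one control replicate (adjusted p = 0.052 to 0.081). That of Hspd1 at 540 min was lost without any one control replicate (0.057 to 0.076) or without cDKO replicate 1 (0.076). That of Hsp90aa1 at 180 min was lost without any one control replicate (0.09 to 0.19), without cDKO replicate 1 or 2 (0.078 and 0.12), and in the fit of all 24 libraries (0.06).

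**Figure D2:**
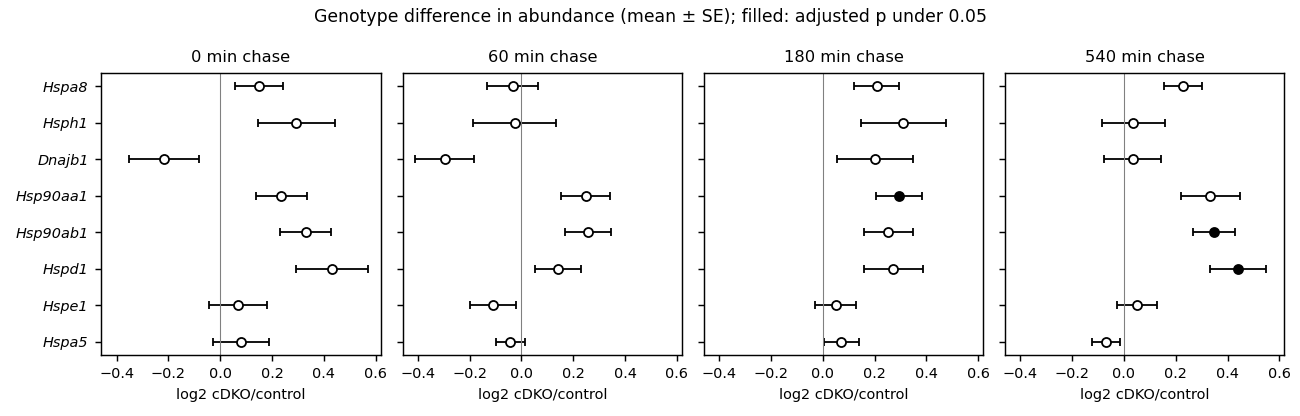
Difference in abundance between cDKO and control as log2 fold change (x axis, edgeR, mean ± SE) for 8 chaperones at each chase time; filled points have an adjusted p under 0.05. Hsp90ab1, Hspd1 and Hsp90aa1 lie to the right of 0 at all times, with differences of 0.14 to 0.44, and Hspe1 and Hspa5 stay near 0.

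Loss of T-to-C conversions over the chase gave the decay of labeled transcripts, and here Dnajb1 lost it first. In control, the conversion rate of Dnajb1 was 2.39, 2.16 and 1.75% of its T positions at 0 min, 1.27, 1.39 and 1.09% at 60 min, 0.544, 0 and 0.302% at 180 min, and 0.0337, 0.0667 and 0.0321% at 540 min. The 0 was 0 of 4231 T positions, which allows a rate of up to 0.0709%. These ranges did not overlap between 0 and 60 min or between 60 and 180 min. By 180 min 13.4% of the starting rate was left, where the median of 9220 genes had 54.4% left. In cDKO the rates were 0.782, 1.37 and 0.894% at 0 min, 0.66, 1.23 and 0.173% at 60 min, and 0.29, 0.146 and 0.0477% at 180 min, so that 15.9% was left. The 0 and 60 min libraries of cDKO overlapped. Its abundance did not track this loss. Reads with a conversion were 17.8 ± 0.70 CPM at 0 min and 0.515 ± 0.203 at 540 min in control (SD, n = 3), while all its reads were 56.2 ± 3.64 and 62.3 ± 5.07 CPM.

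The other inducible members kept their label longer. Hsp90aa1 rates in control were 1.45, 1.66 and 1.5% at 0 min, 1.41, 1.6 and 1.49% at 180 min and 0.137, 0.156 and 0.228% at 540 min. Thus 97.8% of the starting rate was left at 180 min and 11.3% at 540 min. Hsph1 rates in control were 1.19, 1.91 and 1.42% at 0 min, 0.922, 1.42 and 1.54% at 180 min and 0.125, 0.0535 and 0.109% at 540 min, with 86.0% and 6.36% left. The control rates of both stayed near the start through 180 min and were low at 540 min. The conversions of Hsp90aa1, like its level, come from reads of which 94.1 to 98.0% were multimapped, so its rates, slope and half-life here may be shared with other places in the genome. In cDKO, 83.8% of the Hsp90aa1 rate and 81.1% of the Hsph1 rate were left at 180 min, and 22.3% and 15.5% at 540 min.

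Constitutive members covered most of the range. Hsp90ab1 was the slowest, with control rates of 1.52, 1.63 and 1.55% at 0 min, 1.37, 1.41 and 1.34% at 180 min and 0.701, 0.772 and 0.744% at 540 min, so that 47.1% was left. In cDKO it went from 0.717, 0.804 and 0.53% at 0 min to 0.398, 0.406 and 0.302% at 540 min, with 53.9% left. Hspe1 kept 98.6% at 180 min and 36.6% at 540 min in control, and 84.5% and 36.6% in cDKO. Its neighbour Hspd1 kept 79.5% and 9.4% in control, and 76.8% and 12.2% in cDKO. Hspa5 kept 83.3% and 11.3% in control, from 1.65, 1.78 and 1.69% at 0 min to 0.176, 0.228 and 0.177% at 540 min. In cDKO Hspa5 kept 92.5% and 25.7%, from 0.801, 0.813 and 0.505% to 0.169, 0.186 and 0.189%. The median gene kept 7.61% at 540 min in control and 12.6% in cDKO. A conversion floor, taken from 418 short-lived genes in the 540 min cDKO libraries, was 0.0751%. Mean cDKO rates at 540 min of Dnajb1 (0.0596%), Hspa8 (0.0522%) and Hspd1 (0.0852%) were near or below it. Because cDKO began at lower rates, such a floor is a larger part of its percent left, which limits the comparison of genotypes at 540 min.

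Hspa8 lost label while its total level was higher at 540 min. Its control rates were 1.51, 1.61 and 1.52% at 0 min, 1.57, 1.62 and 1.54% at 60 min, 0.925, 1.07 and 0.928% at 180 min and 0.119, 0.0933 and 0.111% at 540 min. Reads with a conversion went from 128 ± 9.1 CPM at 0 min to 55.8 ± 1.37 at 180 min and 13.3 ± 2.42 at 540 min (SD, n = 3). All Hspa8 reads over the same times were 544 ± 10.9, 373 ± 21.4 and 779.9 ± 1.94 CPM. In cDKO, converted reads went from 63.5 ± 18.3 to 8.97 ± 0.719 CPM and all reads from 596 ± 48.0 to 919 ± 88.4. The higher level at 540 min was thus in reads without a conversion in both genotypes.

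**Figure D3:**
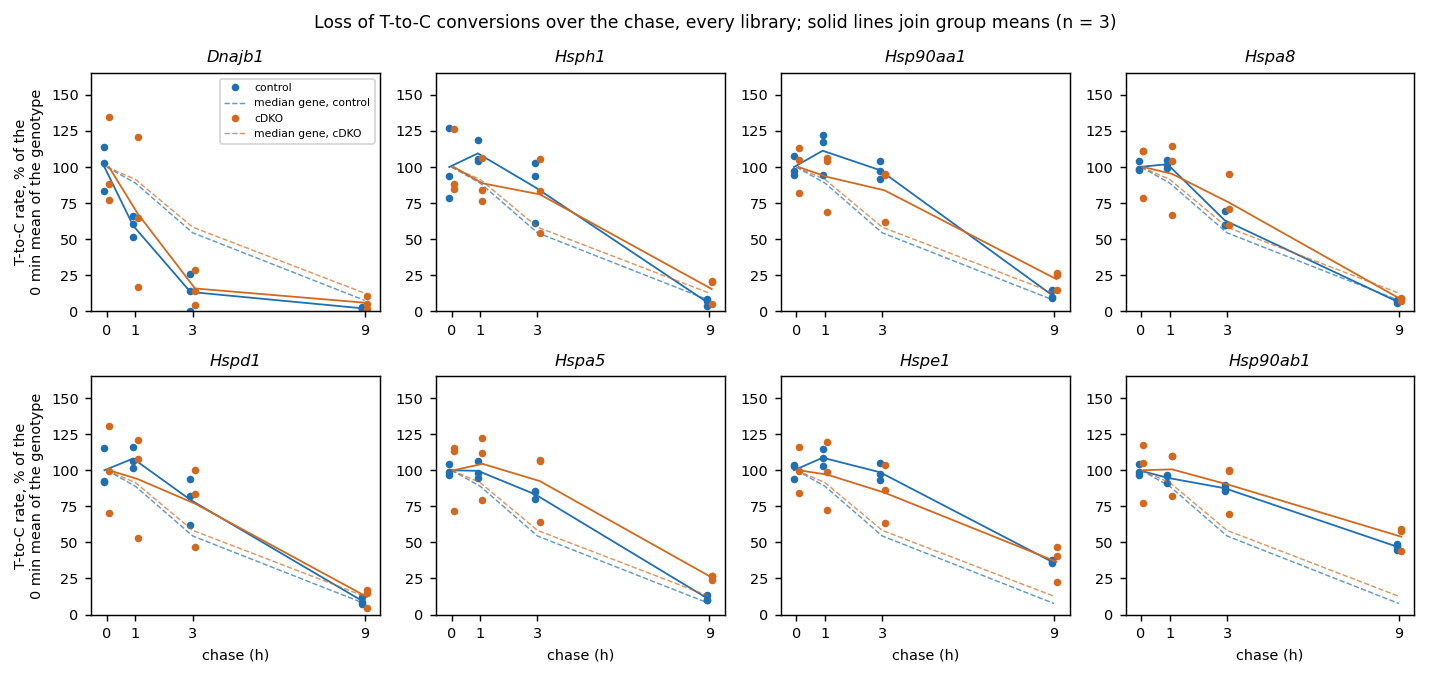
T-to-C conversion rate as percent of the mean 0 min rate of the same genotype (y axis) against chase time in hours (x axis); points are libraries, solid lines join means of 3, and dashed lines are the median of 9220 genes. Dnajb1 falls below the median gene from 1 h, while Hspe1 and Hsp90ab1 stay above it at 9 h with 36.6% and 47.1% of the rate left in control.

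Decay was tested against the library by regressing conversions on hours of chase, with covered T positions times the library-wide rate as offset, so that 0 is the pace of the pooled library. All 8 members with enough coverage were called in control, where 67.7% of genes were. The pooled rate is weighted to abundant transcripts, and the median gene stood at -0.15 log2 units per hour. Faster than the library were Dnajb1 (-0.41 ± 0.08 SE per hour, adjusted p = 0.00012), Hsph1 (-0.18 ± 0.05, 0.0023), Hspa8 (-0.18 ± 0.02, 2.7e-07), Hspd1 (-0.13 ± 0.03, 0.0014), Hspa5 (-0.10 ± 0.02, 0.00011) and Hsp90aa1 (-0.09 ± 0.03, 0.016). Slower were Hsp90ab1 (0.15 ± 0.0047, 1.3e-17) and Hspe1 (0.10 ± 0.01, 2.3e-06). In cDKO 5 of 8 were called, against 55.5% of genes. These were Dnajb1 (-0.27 ± 0.07), Hspa8 (-0.18 ± 0.03) and Hspd1 (-0.11 ± 0.03) on the fast side, and Hsp90ab1 (0.12 ± 0.01) and Hspe1 (0.06 ± 0.02) on the slow side. The straight line in time does not describe the plateau. Without the 540 min libraries, Hsp90aa1 and Hspa5 in control lost label more slowly than the library (0.18 and 0.11 per hour, adjusted p = 4.8e-05 and 1.3e-07), and Hspd1 and Hsph1 stood at 0.08 and 0.13 (adjusted p = 0.20 and 0.15). Hspa8 then stood at -0.03 (adjusted p = 0.48), and Dnajb1 at -0.76 (adjusted p = 6.2e-06). Calls were lost for Hsp90aa1 in control without replicate 1 or 2 (adjusted p = 0.085 and 0.094), and in cDKO for Dnajb1 without replicate 2 (0.06) and for Hspe1 without replicate 1 or 2 (0.17 and 0.14).

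No member was called for a genotype difference in decay. In the genotype by hour test, 0 of 8 were called by edgeR against 0.131% of all genes. DESeq2 called 0, against 2.26%, and 3 had an unadjusted p under 0.05, against 17.2%. The 3 were Hspa5 (0.14 ± 0.04 SE log2 units per hour, slower in cDKO, adjusted p = 0.09), Hsp90aa1 (0.13 ± 0.05, adjusted p = 0.21) and Hsph1 (0.16 ± 0.07, adjusted p = 0.24). The median gene stood at 0.07 on the same scale. Without the 540 min libraries Hsp90aa1 and Hsph1 stood at -0.06 and -0.02, and their fitted half-lives were shorter in cDKO, so their direction is not settled. With the replicate number as a block, Hspa5 was called (0.14 ± 0.04, adjusted p = 0.046). Labeling at 0 min relative to the library was also compared, and 0 of 8 members were called by edgeR (0.321% of all genes). DESeq2 called 0 (0.356%), and 1, Hspa5, had an unadjusted p under 0.05 (8.03%).

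Half-lives from a single exponential put numbers on these curves. Of 8 members with coverage, 6 met the bound of 0.3 on the SD of normalised 0 min rates in both genotypes, and Dnajb1 and Hspd1 were just outside it in cDKO (0.307 and 0.302). In control the half-life was 71.4 min for Dnajb1, 232 for Hspa8, 293 for Hspd1, 300.4 for Hspa5, 302 for Hsph1, 361 for Hsp90aa1, 541 for Hspe1 and 562 for Hsp90ab1. The medians of 3700 genes were 225 min for control and 252 min for cDKO. Replicate half-lives of Dnajb1 in control were 74.4, 64.4 and 78.9 min, all below those of every other member. Those of Hspa8 (227 to 238 min) lay within the ranges of Hspd1 (205 to 382 min) and Hsph1 (225 to 381 min), and so did those of Hspa5 and Hsp90aa1. Only the order of Hspa8, Hspa5 and Hsp90aa1 among these 5 was free of overlap. Those of Hspe1 (646, 529 and 473 min) and Hsp90ab1 (577, 551 and 557 min) overlapped and were above all others. As classes, the 3 inducible members spanned 71.4 to 361 min with a median of 302, and the 5 constitutive members 232 to 562 min with a median of 300.4. Dnajb1 aside, the inducible members lay within the constitutive range in this fit. These values depend on the fit. Fitting a straight line to log rates, its intercept left free, gave control half-lives of 96.8 to 157 min for the inducible members (median 124), with Hsph1 at 124, and 133 to 486 min for the constitutive members (median 162). Without the 540 min libraries Dnajb1 stood at 71.2 min, while Hsp90aa1 and Hspe1 reached the upper bound of 10000 min.

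In cDKO the half-lives were 84.0 min for Dnajb1, 261 for Hspa8, 277 for Hspd1, 295 for Hsph1, 343 for Hsp90aa1, 414 for Hspa5, 446 for Hspe1 and 690.4 for Hsp90ab1. Of the 8, 4 were longer and 4 shorter than in control, while 68.6% of all genes were longer. In the fit to log rates all 8 were longer, as were 85.6% of all genes. With the conversion floor of 0.0751% subtracted, 4 of the 8 and 56.7% of all genes were longer. The replicate half-lives did not overlap between genotypes for Hspa8, Hsp90ab1 and Hspa5, which were longer in cDKO. The closest replicates nearly met for Hspa8 (237.5 min in control, 239.4 in cDKO) and Hsp90ab1 (577 and 586 min). The share of all genes without such overlap was not computed, and the libraries of a control replicate share only a number. For Hspa5 the control replicates gave 307, 305 and 289 min and the cDKO replicates 382, 401 and 505 min, the largest difference of the 3 (0.46 on the log2 scale). Subtracting that floor, taken from 418 short-lived genes, left the difference of Hspa5 at 0.34. It lowered that of Hspa8 from 0.17 to 0.08 and that of Hsp90ab1 from 0.30 to 0.18. Replicates spread more widely in cDKO than in control for Dnajb1. The 3 replicate half-lives of Dnajb1 in cDKO were 139, 101 and 25.8 min, against a range of 64.4 to 78.9 min in control.

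**Figure D4:**
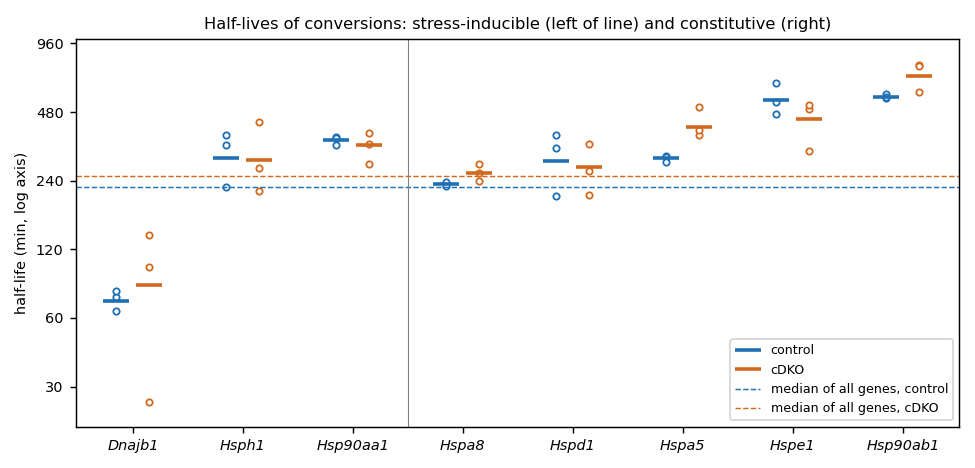
Half-life of conversions in min (y axis, log scale) for 3 stress-inducible members, left of the vertical line, and 5 constitutive members, right of it; bars are fits to all 12 libraries of a genotype, open circles are replicates, and dashed lines are medians over 3700 genes. Dnajb1 sits at 71.4 min in control and the remaining members between 232 and 562 min.

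The wider chaperone network was read from fixed lists. At 0 min, when 13.4% of all genes were called, its genotype calls went both ways. Of 13 J-domain co-chaperones tested at 0 min, Dnajb12 (0.91 ± 0.18 SE) and Dnaja2 (0.38 ± 0.08) were higher and Dnajb14 (-0.94 ± 0.24) lower in cDKO, and all 3 were called at 540 min too. Of 14 HSP90 co-chaperones 1 was lower at 0 min, Ppid (-0.76 ± 0.12), a cyclophilin of HSP90 complexes. Of 22 ER chaperones and folding enzymes 1 was higher, Dnajc10 (0.69 ± 0.08), an ER disulfide reductase, and at 540 min 3 were, with Calr at 0.42 ± 0.07 and Hsp90b1 at 0.28 ± 0.07. Of 15 regulators of the unfolded protein response, Trib3 (0.95 ± 0.25) and Derl1 (0.51 ± 0.11) were higher and Xbp1 (-0.59 ± 0.11) lower at 0 min. Of 11 mitochondrial chaperones and proteases Dnajc19 (-0.85 ± 0.14) was lower. Of 2 genes tested on the list named small HSPs, Hspb11 was lower (-1.52 ± 0.40), and whether it acts as a chaperone was not tested. Of 14 subunits of the chaperonin CCT and prefoldin 1 was called at 0 min and 8 at 540 min, 6 of them higher, such as Cct5 (0.42 ± 0.07) and Tcp1 (0.34 ± 0.07). At that time 8.89% of all genes were called higher and 10.4% lower. The median log2 difference of this list at 540 min was 0.26, against 0.00 over all genes. These calls are from edgeR, each with adjusted p under 0.05, and the marker differences between genotypes moved with them.

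In the control chase, called HSP90 co-chaperones and chaperonin subunits were mainly lower at 540 min. In this comparison 8.43% of all genes were called higher and 9.31% lower, and no list was tested as a set. Of 14 HSP90 co-chaperones 3 were lower, namely Ppid (-0.59 ± 0.06 SE), Ptges3 (-0.50 ± 0.06) and Fkbp4 (-0.46 ± 0.06), and 1 was higher. Of 14 CCT and prefoldin subunits 6 were called, all lower, such as Pfdn4 (-0.61 ± 0.14) and Cct5 (-0.47 ± 0.07). Among 22 ER chaperones 4 were higher and 4 lower, with Dnajc10 at 0.51 ± 0.06 and Creld2 at -0.52 ± 0.13. Of 10 nucleotide exchange factors and HSP70 partners 2 were called, Stip1, which bridges HSP70 and HSP90, at -0.31 ± 0.07 and St13 at -0.31 ± 0.10. Of 4 further HSP70 and HSP110 genes 1 was called, Hspa2 (1.21 ± 0.40). Of 3 heat shock factor genes Hsf2 was higher (0.49 ± 0.17) and Hsbp1, a binding partner of heat shock factor, lower (-0.23 ± 0.07). In decay relative to the library in control, 10.5% of all genes were called slower and 57.3% faster. Of 22 ER chaperones 10 were slower and 3 faster, with Ppib at 0.22 ± 0.02 per hour and a list median of 0.07 against -0.15 over all genes. Of 12 J-domain co-chaperones 10 were called, all faster, with Dnajb14 at -0.29 ± 0.06, but their median of -0.16 was near that of all genes. Of 15 regulators of the unfolded protein response 9 were faster and 2 slower, among them Ddit3 (-0.56 ± 0.11) and Xbp1 (-0.32 ± 0.02), beside -0.41 for Dnajb1.

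Over the 24 libraries, Hsph1, Mlec and Ywhag had the levels most like those of Hspa5, with Pearson r of 0.762, 0.761 and 0.748 of log2(CPM + 1) over 8285 genes with a mean of at least 10 CPM. Among the members, Hsph1 was also close to Hspa8 (0.749), and Hsp90aa1 to Hspd1 (0.72) and Hspe1 (0.665). The points share libraries, depth and the time course, and these values are descriptions.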

How the data were processed

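The 24 libraries were 3′-end (QuantSeq FWD) SLAM-seq libraries made with 16 PCR cycles and no molecular identifiers. Per the file headers, the authors ran SlamDunk 0.4.3 over 3′UTR intervals of mm10 (GRCm38 per the labels). The deposited tables give counts of reads, multimapped reads, converted reads, conversions and covered T positions, a conversion rate as a fraction and a CPM. Only the count columns were tested. The deposited CPM values, scaled to filtered reads, gave the number of filtered reads, 9552906 to 13882269 per library, and CPM were recomputed on reads in 3′UTRs. Aligner and filter settings were not given in the sources used here. Counting error alone is covered by limits from counts. Symbols came from RefSeq (GRCm38.p6) for 99.17% of 39419 lines, and of overlapping intervals of a gene the longest was kept.

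Abundance was tested with the edgeR 4.0.16 quasi-likelihood test (TMM, filterByExpr) in R 4.3.3. Genotypes were compared within a time (6 libraries), and times within a genotype (12 libraries). Conversion tests used log T coverage as offset, with at least 100 covered T positions in each library and at least 50 conversions. Adjustment (Benjamini-Hochberg) ran over all genes, with a threshold of 0.05. Half-lives, bounded to 1 to 10000 min, were least squares fits to rates divided by the mean 0 min rate of the genotype, and those of replicates to the 4 libraries sharing a number, which in control share only that number. The methods were tested on simulated data. For cDKO against control at 0 min, a log2 change of 0.5 was recovered in 47% of changed genes and 1 in 100%. For control at 180 against 0 min, 0.5 was recovered in 47.5%. A difference of that size or smaller that was not called may thus still be present. DESeq2 1.42.0, other normalization, filters, intervals and left-out replicates were alternatives.

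The study's methods describe the 3 replicates as biological. In cDKO, deviations from group means at 0 and at later times correlated for every replicate number (r from 0.278 to 0.706), and numbers were taken to pair the cDKO chase samples. In control (r from -0.00698 to 0.117) and between genotypes (-0.0755 to 0.0982) they were not.

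The members and lists were chosen with earlier results of these data known. Named genes were the members, up to 3 called genes of each list with the largest change, and the 3 most like Hspa5; likeness to Hspa1b was not used, with too few reads. Classes of inducible and constitutive members follow general knowledge. Lists covered HSP70 and HSP110, J-domain and HSP90 co-chaperones, nucleotide exchange and HSP70 partners, small HSPs, chaperonin, mitochondrial and ER chaperones, heat shock factors, regulators of the unfolded protein response, and lineage markers.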

Additional observations from a re-analysis of the deposited data

Results flagged for a closer look

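At 60 min of chase, the mean change of Hspd1 from 0 min had opposite signs in the genotypes. The libraries of these times overlapped in each genotype. The 3 control libraries were each above the mean of the control 0 min libraries, by 0.0411 on the log2 scale on average, and the 3 cDKO libraries were each below the cDKO mean, at -0.2145 on average. This difference was not tested, and neither the control change (adjusted p = 0.82) nor the cDKO change (0.88) passed edgeR on its own.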

How the results depend on the processing

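Over single members and alternatives, 1309 values kept their direction and side of the threshold and 55 changed sign without passing it in either setting. A further 41 passed it only under the alternative, 35 no longer passed it, and 8 that passed it in either setting changed sign. The causes were not tested. Members called for genotype numbered 0, 0, 1 and 2 at 0, 60, 180 and 540 min. DESeq2 called 2, 1, 2 and 4. No filter on low counts gave 1, 2 and 4 at 60, 180 and 540 min. Over all genes that setting called 2240 of 13272, 2116 of 13298 and 2126 of 13235. The 1 fit of all 24 libraries gave 2 at 0 min and 0 at 180 min, beside 2286 and 2325 of 10784 genes. Leaving out multimapped reads gave 0 at 180 min, beside 1871 of 9957 genes. The replicate block, with numbers that do not pair the genotypes, gave 1 at 60 min and 0 at 180 min. Over all genes it called 1775 and 1709 of 10088 at these times. Leaving out 1 replicate gave 0 to 2, 0 to 2, 0 to 4 and 0 to 4. Over all genes these fits called 632 to 2214, 1293 to 2317, 1156 to 2146 and 1178 to 2059. In the control chase, leave-one-out counts were 0 to 1 at 60 min, 2 to 4 at 180 min and 2 to 4 at 540 min. Over all genes they were 56 to 186, 169 to 341 and 914 to 1304. In the cDKO chase, 0 members at 180 min became 1 in DESeq2 and 3 with the paired block. The 1 at 540 min became 2 and 4, and 0 without multimapped reads, with only the 6 libraries of the 2 times, or without any one replicate. The settings that gave 0 were fitted without the block. The genotype difference in decay gave 1 call (Hspa5) with the block and 0 otherwise.

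Relative decay in control had 8 called members and 5 without the 540 min libraries, and in cDKO 3 to 5 when 1 replicate was left out. Over all genes these fits called 6122, 4095 and 3397 to 4046. Without 540 min, slopes turned positive for Hsp90aa1 (0.18), Hspa5 (0.11), Hspd1 (0.0763) and Hsph1 (0.13) in control and for Hspa5 (0.14), Hspa8 (0.0482) and Hspd1 (0.0563) in cDKO. In cDKO those of Hsp90aa1 (0.10) and Hsph1 (0.08), not called in either setting, turned positive too. The control change of Hsp90aa1 at 540 min turned to 0.0609 without multimapped reads. The median log2 ratio of half-lives over 6 members was 0.07, but -0.35 without 540 min and 0.39 in a log-linear fit. Without 540 min, Hsp90aa1 and Hspe1 in control were at the upper bound of 10000 min. Leaving out 1 replicate gave -0.0822 to 0.15, but the members passing the SD bound then changed.

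Over all genes, cDKO chase calls at 60, 180 and 540 min were 1, 7 and 97 in edgeR, 12, 30 and 301 in DESeq2, and 27, 110 and 783 with the block. With 6 libraries they were 0, 1 and 12, and without 1 replicate at most 0, 3 and 22. Control calls at 60 min were 217, or 373 without the filter and 347 with 6 libraries, and 56 without replicate 3. The genotype difference in decay called 12 genes, 207 in DESeq2, 59 with the block, 23 with the library-wide rate in the offset, 4 with the floor subtracted and 1 without 540 min. Relative decay in cDKO called 4609, or 2404 without 540 min. Genotype calls at 0 min were 1359, or 2286 in the fit of 24 libraries and 632 without control replicate 2. The abundance change called 0, and 6 in DESeq2. Depth limits Hspa1a and Hspa1b.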
